A study of Bos taurus with 6 samples.

Results

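The methionine cycle and the serine synthesis pathway were followed through 8 genes. MAT2A, MAT2B, AHCY, MTR and MTRR belong to the cycle, and PHGDH, PSAT1 and PSPH make serine. They were chosen by name from the expression table that the authors deposited, as 8 of its 17663 genes. RNA was sequenced from bEFs, which are fibroblasts in primary culture grown from bovine fetuses at 50–60 days. FT cells came from 3 fetuses transgenic for fat-1, a worm desaturase gene whose product turns omega-6 into omega-3 fatty acids, and WT cells from 3 Luxi fetuses of the wild type. Every fetus is a single library, so the groups differ by fetus as well as by transgene, and the promoter of the transgene is not given in the sources used here. The study asked how fat-1 bears on energy metabolism in these cells and how such effects relate to DNA methylation. The 8 genes supply the methyl groups that DNA methylation consumes.

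In the methionine cycle, methionine is joined to the adenosine part of ATP to make S-adenosylmethionine (SAM), the donor for nearly all methyl transfers in the cell. Each transfer leaves S-adenosylhomocysteine, which inhibits methyltransferases until it is split into adenosine and homocysteine, and homocysteine is then methylated back to methionine with a methyl group carried by folate. Serine, made from the glycolytic intermediate phosphoglycerate or taken up from the medium, is the main source of the single-carbon units that load folate.

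Levels are given as FPKM, a measure of fragments per length of transcript and per size of library, so that genes can be compared with each other. Total counts were 63366834, 48167642 and 54204446 in FT_1, FT_2 and FT_3. They were 69777641, 51310741 and 54271927 in WT_1, WT_2 and WT_3. Total FPKM was 407533, 396565 and 390892 in FT_1, FT_2 and FT_3, and 456349, 467653 and 453721 in WT_1, WT_2 and WT_3. Comparisons of FPKM between the groups carry this difference. FT_1 stood apart from the other FT libraries. The correlation of log2 CPM, counts relative to the library total, across tested genes was 0.926 between FT_1 and FT_2 and 0.926 between FT_1 and FT_3, whereas it was 0.997 between FT_2 and FT_3 and at least 0.994 between any pair of WT libraries. Genes are not independent replicates, and these correlations only describe the libraries. Fold changes of the 8 genes, their ratios and the counts of gene lists are therefore given with and without FT_1.

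Markers of cell types differed in the same libraries. All 11 of 11 fibroblast markers were above 1 FPKM in FT_1, yet their summed level was 8710.5, 20183 and 19481 FPKM in FT_1, FT_2 and FT_3, against 21884, 21413 and 21695 in WT_1, WT_2 and WT_3. VIM, the most abundant of them in WT, was at 1244, 3850 and 4171 FPKM in FT_1, FT_2 and FT_3. It was at 7312 to 8178 FPKM in WT. PDGFRA and THY1 went the other way, at 218 and 413 FPKM in FT_1 against 87.0 to 99.7 and 330.0 to 368.5 FPKM in WT. LUM was at 551, 2759 and 2559 FPKM in FT_1, FT_2 and FT_3, and at 1117 to 1224 FPKM in WT. At an adjusted p under 0.05 in edgeR, described below, 1 of the 11 was higher in FT and 1 lower (20.1% and 18.9% of all genes). Without FT_1, 5 were higher and 3 lower (30.6% and 31.5% of all genes). The 8 epithelial markers summed to 442, 16.2 and 15.8 FPKM in FT_1, FT_2 and FT_3, against 10.3, 7.92 and 14.2 in WT_1, WT_2 and WT_3, and 7 of the 8 were above 1 FPKM in FT_1. The basal keratin KRT5, the most abundant of them in FT_1, was at 172, 2.57 and 1.63 FPKM in FT_1, FT_2 and FT_3, and CDH1 was the most abundant in every other library. KRT5, KRT14, KRT8, KRT18 and EPCAM were at 0 in all WT libraries. The 4 of 6 mesothelial markers in the table summed to 337, 47.5 and 48.1 FPKM in FT_1, FT_2 and FT_3, against 2.37, 3.63 and 3.34 in WT_1, WT_2 and WT_3, led by MSLN, and the gene WT1 was at 0 in the FT libraries. The 7 smooth muscle markers, led by ACTA2 in all libraries but WT_2, where TAGLN led, summed to 2521, 3819 and 3673 FPKM in FT_1, FT_2 and FT_3, and to 1108, 1088 and 1216 in the WT libraries. Fewer cells of a type and less RNA per cell cannot be told apart in these bulk samples, and the part of these marker differences in the results was not tested.

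**Figure D1:**
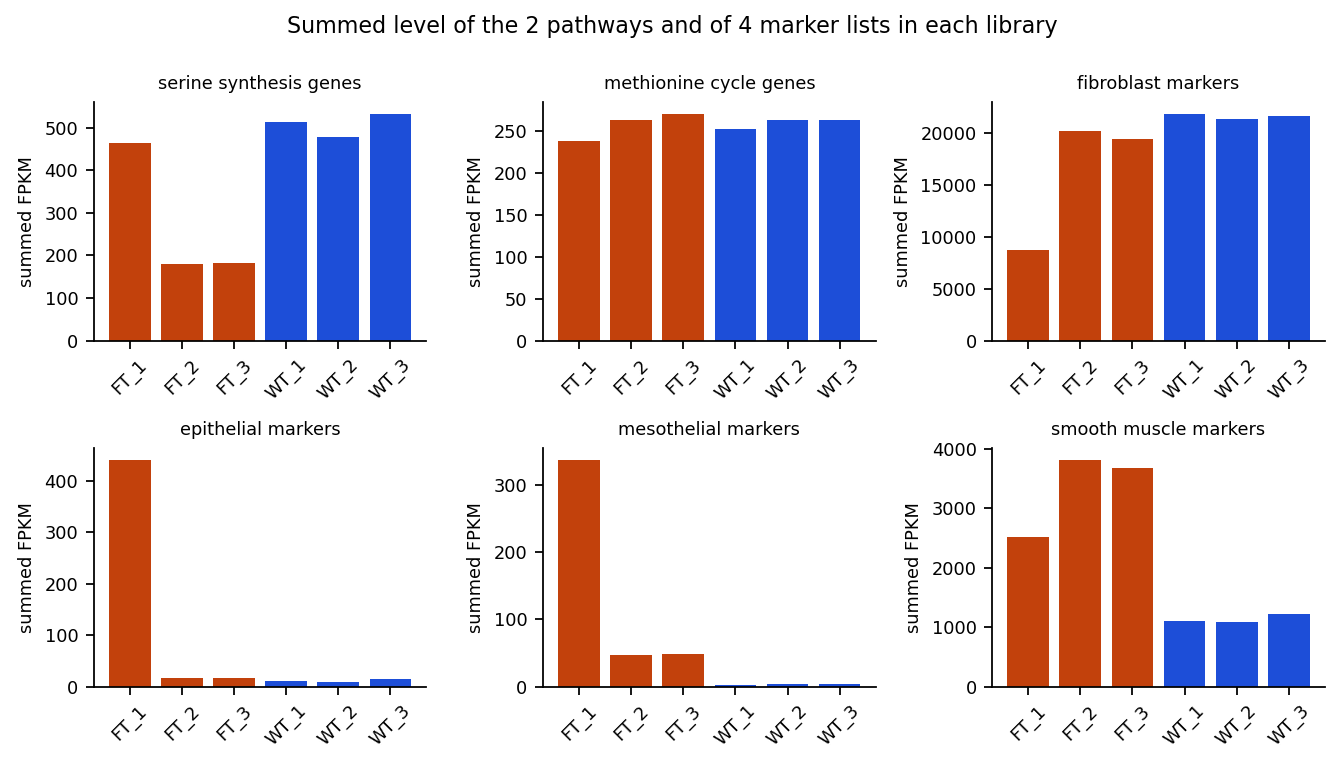
Summed FPKM of the 3 serine synthesis genes, the 5 methionine cycle genes and 4 marker lists in each library, FT in orange and WT in blue. The serine sum was 463, 180.2 and 181 FPKM in FT_1, FT_2 and FT_3, and 478 to 533 in WT, while FT_1 had the lowest fibroblast and the highest epithelial and mesothelial sums of the 6 libraries.

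The serine synthesis genes PSAT1 and PSPH were lower in FT cells, and PHGDH was lower in FT_2 and FT_3 but higher in FT_1. Of the methionine cycle, AHCY was slightly higher in FT cells, and MAT2B, MTR and MTRR did not pass the test with or without FT_1. Fold changes and adjusted p values come from edgeR's quasi-likelihood test on the deposited counts, adjusted by Benjamini-Hochberg over the 13482 genes tested, or over 13765 without FT_1. All 8 genes passed the filter on low counts.

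Summed over its 5 genes, the methionine cycle stood at 237, 263 and 270.3 FPKM in FT_1, FT_2 and FT_3, and at 252, 263 and 263 in WT_1, WT_2 and WT_3. The sums of the groups overlapped, and FT_1 was the lowest of the 6. MAT2A, the catalytic subunit that makes SAM outside the liver (ENSBTAG00000020873, chromosome 11, 49465580 to 49472218, minus strand), was at 81.0, 117.6 and 125.6 FPKM in FT_1, FT_2 and FT_3, and at 118.0, 117.6 and 112.9 FPKM in WT_1, WT_2 and WT_3. The groups overlapped, with FT_1 below every other library. The log2 fold change of FT over WT was 0.06 ± 0.18 (SE) in edgeR, with an adjusted p of 0.822. Without FT_1, MAT2A rose by a log2 fold change of 0.24 ± 0.06 (edgeR, adjusted p = 0.00833), although in FPKM WT_1 stood above FT_2.

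MAT2B encodes the regulatory subunit that binds the MAT2A enzyme (ENSBTAG00000012350, chromosome 7, 75187453 to 75202949, plus strand). Its FPKM was 39.5, 36.7 and 38.8 in FT_1, FT_2 and FT_3, and 40.5, 41.5 and 47.8 in WT_1, WT_2 and WT_3. All FT values lay below all WT values in FPKM, but the groups overlapped in CPM scaled by TMM, the scaling used in the test. The log2 fold change was -0.02 ± 0.09 with all libraries and -0.03 ± 0.09 without FT_1, with adjusted p of 0.907 and 0.815 in edgeR. The gene overlaps ENSBTAG00000051872 in the authors' coordinates, and how reads shared by the pair were counted is not given in the sources used here.

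AHCY, the hydrolase that removes S-adenosylhomocysteine (ENSBTAG00000018101, chromosome 13, 63686723 to 63702437, minus strand), was at 109.7, 103 and 99.9 FPKM in FT_1, FT_2 and FT_3. It was at 86.2, 98.1 and 95.0 FPKM in WT_1, WT_2 and WT_3. Every FT library was above every WT library, FT_3 and WT_2 being close. AHCY rose by a log2 fold change of 0.32 ± 0.08 (edgeR, adjusted p = 0.0270), and by 0.30 ± 0.07 without FT_1 (adjusted p = 0.00486). The call was lost when any of FT_2, FT_3, WT_1, WT_2 or WT_3 was left out, with log2 fold changes of 0.26 to 0.36 and edgeR's adjusted p between 0.0595 and 0.115. AHCY passed the test in 5 of 10 alternative settings. The call was lost with library totals alone (log2 fold change 0.17, edgeR adjusted p = 0.166). With the replicate number as a block it was lost too (0.32, edgeR adjusted p = 0.0964). It was also lost on FPKM, where limma gave 0.16 ± 0.08 with an adjusted p of 0.160. In that fit the median of all genes was itself at -0.12, and AHCY stood 0.29 above it, as it did in the edgeR fit.

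MTR, the cobalamin-dependent methionine synthase (ENSBTAG00000012251, chromosome 28, 9420371 to 9547987, plus strand), had the lowest level of the 8 genes in FPKM. It was at 1.23, 0.74 and 0.85 FPKM in FT_1, FT_2 and FT_3, and at 1.13, 0.72 and 1.05 FPKM in WT_1, WT_2 and WT_3. The groups overlapped over nearly their whole range, and counts of 174 to 382 per library stand behind these levels. The log2 fold change was 0.11 ± 0.28 with all libraries and -0.12 ± 0.22 without FT_1, with adjusted p of 0.777 and 0.670 in edgeR. MTRR encodes the reductase that returns oxidised cobalamin on methionine synthase to its active form (ENSBTAG00000009401, chromosome 20, 65311530 to 65343117, minus strand). Its FPKM was 5.78, 4.79 and 5.24 in FT_1, FT_2 and FT_3, and 5.72, 5.47 and 6.52 in WT_1, WT_2 and WT_3. These groups overlapped as well, with a log2 fold change of -0.01 ± 0.13 (edgeR, adjusted p = 0.974) and of -0.06 ± 0.12 without FT_1 (adjusted p = 0.670).

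**Figure D2:**
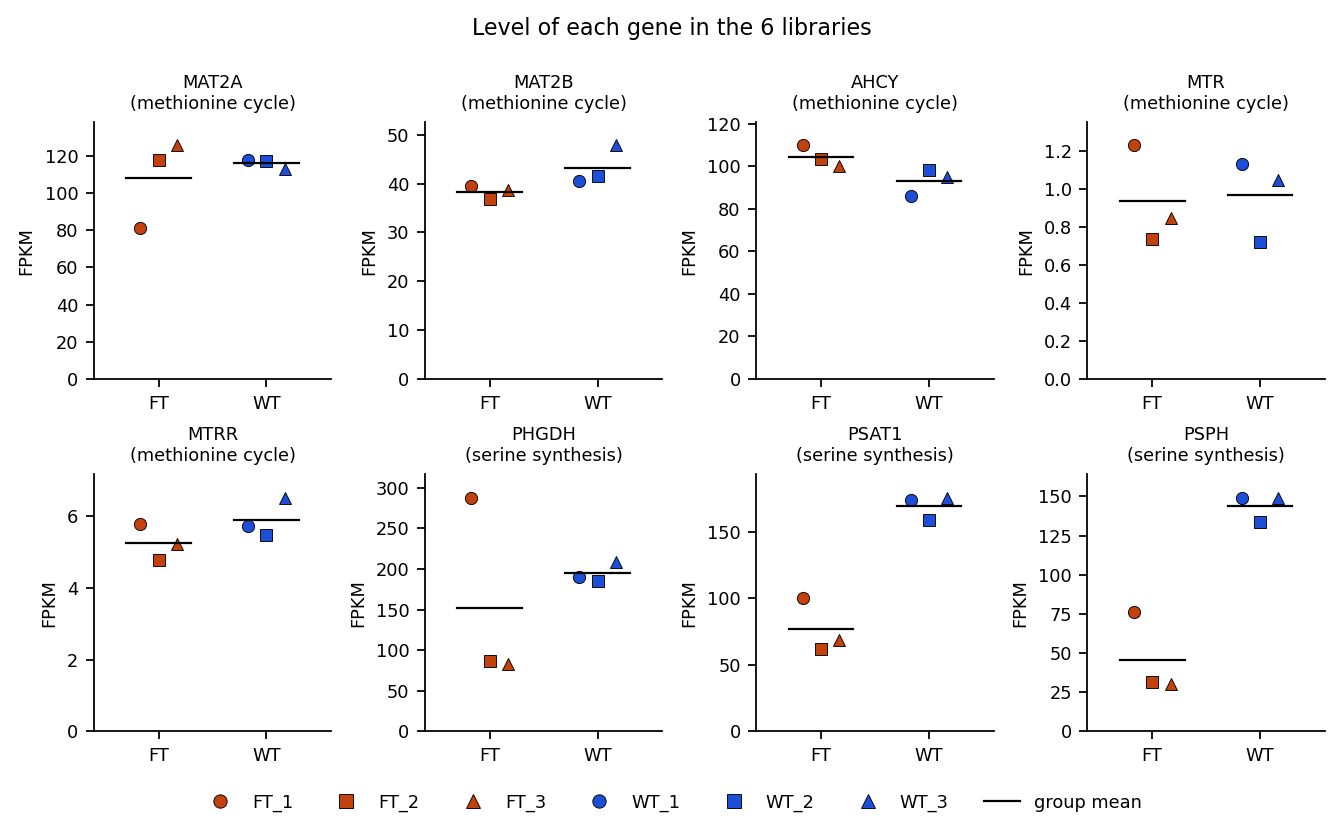
FPKM of each of the 8 genes in the 6 libraries, with FT in orange, WT in blue, a symbol for each replicate number and a line at each group mean. PSAT1 and PSPH were lower in all FT than in all WT libraries, and PHGDH was highest of all in FT_1, at 288 FPKM, and lowest in FT_2 and FT_3.

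The serine synthesis genes had the highest levels of the 8 in WT cells in FPKM. PHGDH, the dehydrogenase that commits phosphoglycerate to serine (ENSBTAG00000039719, chromosome 3, 23565140 to 23596466, minus strand), was at 288, 86.7 and 82.5 FPKM in FT_1, FT_2 and FT_3. In WT cells it was at 190.0, 186 and 208 FPKM in WT_1, WT_2 and WT_3. FT_1 lay above every WT library and FT_2 and FT_3 below every one, so the groups overlapped. The level in FT_1 was 3.40 times the mean of FT_2 and FT_3. With all libraries the log2 fold change was -0.21 ± 0.49 (edgeR, adjusted p = 0.767). Without FT_1, PHGDH fell, with a log2 fold change of -1.03 ± 0.07 (adjusted p = 1.92e-06), and FT_2 and FT_3 averaged 43.5% of the WT mean. Without FT_2 or without FT_3 the log2 fold change was 0.07 or 0.08, neither of which passed the test.

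PSAT1, the aminotransferase of the middle step (ENSBTAG00000013960, chromosome 8, 54216465 to 54245158, plus strand), was at 99.9, 62.1 and 68.7 FPKM in FT_1, FT_2 and FT_3. It was at 174, 159 and 176 FPKM in WT_1, WT_2 and WT_3. All FT libraries were below all WT libraries, and FT_1 was the closest to them. The mean was 76.9 ± 20.2 FPKM (SD, n = 3) in FT and 169 ± 9.30 FPKM (SD, n = 3) in WT. In FPKM the FT mean was thus 45.4% of the WT mean, while the edgeR fit with TMM scaling gave a fold of 0.51. PSAT1 fell with a log2 fold change of -0.98 ± 0.18 (edgeR, adjusted p = 0.00874), and of -1.20 ± 0.08 without FT_1 (adjusted p = 1.20e-06). It passed the test whichever library was left out.

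PSPH, the phosphatase that releases serine (ENSBTAG00000013081, chromosome 25, 27697184 to 27719287, minus strand), had the lowest log2 fold change of the 8. It was at 75.9, 31.4 and 30.2 FPKM in FT_1, FT_2 and FT_3, and at 149, 134 and 149 FPKM in WT_1, WT_2 and WT_3. Every FT library was below every WT library, and FT_1 lay between the other FT libraries and WT. The FT mean of 45.8 ± 26.0 FPKM (SD, n = 3) was 31.9% of the WT mean of 144 ± 8.85 FPKM (SD, n = 3), and FT_2 and FT_3 averaged 21.4% of it. PSPH fell with a log2 fold change of -1.50 ± 0.37 (edgeR, adjusted p = 0.0228), and of -2.05 ± 0.08 without FT_1 (adjusted p = 6.17e-08). The call was lost when any of FT_2, FT_3, WT_1, WT_2 or WT_3 was left out, with log2 fold changes of -1.28 to -1.55 and edgeR's adjusted p of 0.0589 to 0.0742.

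**Figure D3:**
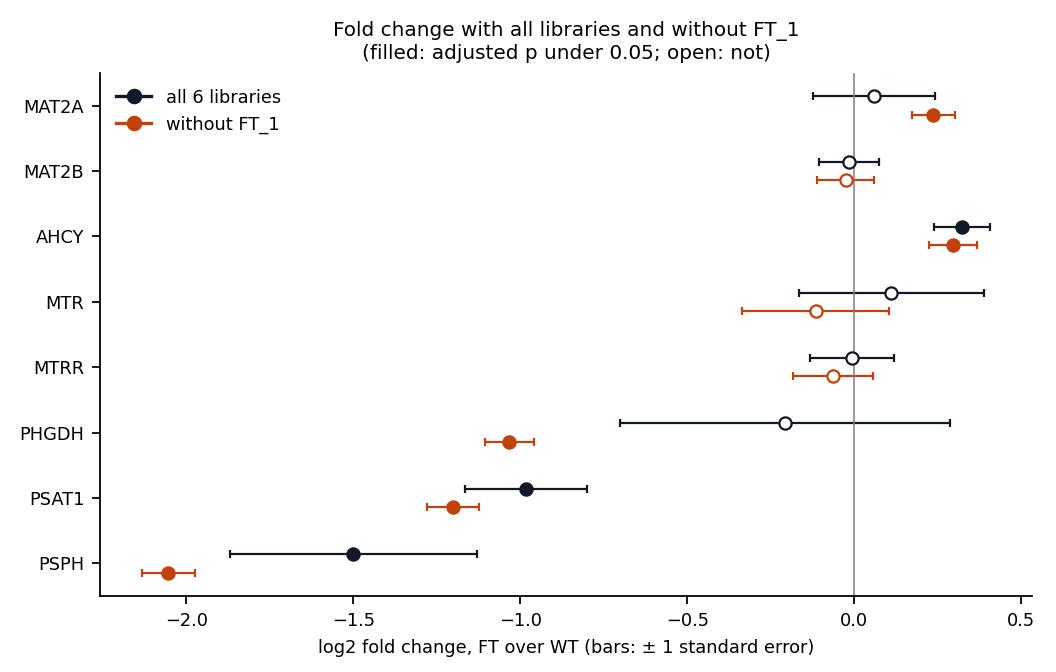
Log2 fold change of FT over WT for the 8 genes with its standard error (bars), from edgeR with all 6 libraries (black) and without FT_1 (orange); filled points have an adjusted p under 0.05. Leaving out FT_1 narrowed the bars of all 8 genes, most for the 3 serine synthesis genes and MAT2A, and PHGDH went from -0.21 to -1.03.

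Counted over the 8 genes at an adjusted p under 0.05, 1 was higher in FT (AHCY), where 20.1% of all genes tested were, and 2 were lower (PSAT1 and PSPH), where 18.9% of all genes were. Without FT_1, 2 were higher (MAT2A and AHCY) against 30.6% of all genes, and 3 were lower (PHGDH, PSAT1 and PSPH) against 31.5%. By the rule of the study, which asks for a log2 fold change beyond 1 in size together with p under 0.05 before adjustment, 1 of the 8 was lower (PSPH) against 8.96% of all genes, and 3 of the 8 without FT_1 (PHGDH, PSAT1 and PSPH) against 12.2%. PSAT1, at -0.98, fell just short of that rule and met it with library totals (-1.13), upper-quartile scaling (-1.01), limma on FPKM (-1.16) and the replicate block (-1.01), and without WT_2 (-1.03), which made 2 of the 8 lower. By the same rule 0 of the 8 were higher with or without FT_1, where 1378 and 1521 of all genes were. At an adjusted p under 0.05 the shares of the 8 genes, 12.5% higher and 25% lower with all libraries and 25% higher and 37.5% lower without FT_1, lie near those of all genes. In CPM scaled by TMM, all FT libraries were above all WT libraries for AHCY, as they were for 28.3% of the genes tested. They were below all WT libraries for PSAT1 and PSPH, as they were for 29.4%. Over all genes 51.6% of the calls with TMM scaling were higher in FT, and 37.6% were with scaling by library totals alone, a setting in which the median of all genes moved to -0.12. Relative to that median, PSAT1 stood at -1.01 and PSPH at -1.52.

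The order of the genes by FPKM differed between the groups. In WT cells it ran from PHGDH (195 FPKM on average) through PSAT1, PSPH, MAT2A, AHCY, MAT2B and MTRR to MTR (0.967 FPKM), and the ranges of neighbours in that order did not overlap. In FT cells it ran from PHGDH (152 FPKM) through MAT2A, AHCY, PSAT1, PSPH, MAT2B and MTRR to MTR (0.940 FPKM). There, PSAT1 and PSPH came after MAT2A and AHCY, and the ranges of neighbours overlapped from PHGDH down to MAT2B. In FT_2 and FT_3, MAT2A and AHCY were both above PHGDH in FPKM.

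The ratio of 2 genes within a library does not depend on how libraries are scaled. PSPH was at 0.264 of PHGDH in FT_1, at 0.362 in FT_2 and at 0.366 in FT_3, and at 0.783, 0.719 and 0.716 in WT_1, WT_2 and WT_3. All FT ratios lay below all WT ratios. FT_1 had the lowest, and its PHGDH level, the denominator of the ratio, was the highest of the 6. In PSPH itself FT_1 was the highest FT library, at 75.9 FPKM against 31.4 in FT_2 and 30.2 in FT_3. The mean log2 difference was -1.18, or -1.02 without FT_1, and the two-sided exact permutation test gave p = 0.10, the smallest that 3 libraries against 3 allow (adjusted p = 0.25 over 5 ratios). PSAT1 was at 0.347 of PHGDH in FT_1, at 0.717 in FT_2 and at 0.833 in FT_3, and at 0.916, 0.855 and 0.843 in WT_1, WT_2 and WT_3. The groups did not overlap, but FT_3 and WT_3 nearly met, and the mean log2 difference went from -0.56 to -0.17 without FT_1 (exact permutation p = 0.10 in both, adjusted p = 0.25 with all libraries). Without FT_3 it was -0.80. Leaving out WT_1, WT_2 or WT_3 gave an exact permutation p of 0.50, 0.40 and 0.40 for this ratio.

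In the methionine cycle the ratios overlapped between the groups with all libraries. MAT2A was at 2.05 times MAT2B in FT_1, at 3.20 times in FT_2 and at 3.24 times in FT_3, and at 2.91, 2.84 and 2.36 in WT_1, WT_2 and WT_3. The lowest and the highest of these ratios were both in FT cells, and the exact permutation test gave p = 1 (adjusted p = 1). Without FT_1 both FT ratios lay above all WT ratios, and the mean log2 difference moved from 0.04 to 0.26 (exact permutation p = 0.20). MAT2A over AHCY was 0.739 in FT_1 and between 1.14 and 1.37 in the other libraries (exact permutation p = 0.40, adjusted p = 0.667), a mean log2 difference of -0.29, or of -0.062 without FT_1 and -0.45 without FT_3. MTRR over MTR ran from 4.70 in FT_1 to 7.60 in WT_2 (exact permutation p = 0.60, adjusted p = 0.75), a mean log2 difference of -0.12, or of 0.026 without FT_1.

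**Figure D4:**
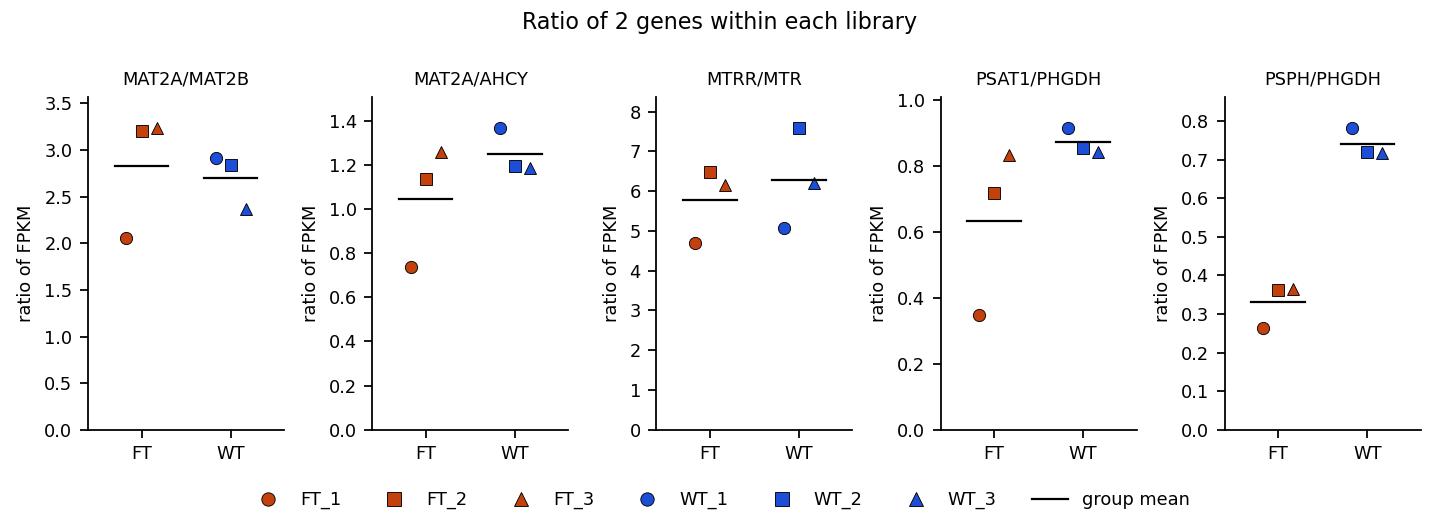
Ratio of the FPKM of 2 genes within each library, with FT in orange, WT in blue and a line at each group mean. PSPH over PHGDH was at most 0.366 in FT and at least 0.716 in WT, while the ratios of MAT2A to MAT2B, MAT2A to AHCY and MTRR to MTR overlapped.

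Around these 8 genes, 12 lists of related genes held 123 genes, of which 112 were in the table and 111 were tested. At an adjusted p under 0.05 in edgeR, 17 were higher in FT and 37 were lower, 11 of the lower being proliferation genes, where 20.1% and 18.9% of all genes were higher and lower. Without FT_1 the counts were 30 and 60, where 30.6% and 31.5% of all genes were. The median log2 fold change of all genes tested was 0.03, or -0.02 without FT_1, and medians of lists are read beside it. The lists are given here by their distance from the 8 genes, with the genes named by smallest p. Every gene so named passed the test without FT_1 too, in the same direction.

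Of the SAM synthesis partners, 6 were tested, with 1 higher, 1 lower and a median log2 fold change of 0.10 (2 higher, 3 lower and -0.17 without FT_1). AHCYL1, a regulator of the inositol trisphosphate receptor that is related to AHCY, rose from 33.9, 34.5 and 36.7 FPKM in WT to 44.4, 53.0 and 51.8 FPKM in FT_1, FT_2 and FT_3 (log2 fold change 0.67, edgeR adjusted p = 0.00480). ADK, the kinase that clears the adenosine AHCY releases, fell from 53.7–56.6 FPKM in WT to 18.3, 28.5 and 27.4 FPKM in FT_1, FT_2 and FT_3 (log2 fold change -0.99, adjusted p = 0.00893). MAT1A, the liver form of the SAM synthetase, was at 0 in every FT library and at most 0.02 FPKM in WT. It is also in the list of hepatocyte markers, of which 4 of 5 were in the table and summed to 7.64, 22.7 and 20.3 FPKM in FT and 130.3, 116 and 137 FPKM in WT, led by TTR, with ALB at or near 0 in all 6 libraries.

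The list of cobalamin handling genes was drawn up around methionine synthase, but it also holds MMUT, MMAA and MMAB, which do not serve it. Of 9 tested, 2 were higher and 3 lower, with a median log2 fold change of -0.33. TCN2, the plasma carrier of cobalamin, rose with a log2 fold change of 1.27 (edgeR, adjusted p = 0.00808), from 18.0–21.1 FPKM in WT to 29.0, 49.3 and 49.0 FPKM in FT_1, FT_2 and FT_3. MMADHC, which routes cobalamin inside the cell, fell with a log2 fold change of -0.65 (adjusted p = 0.00292). MMUT, the other cobalamin enzyme of the cell, fell with -0.52 (adjusted p = 0.00265), and ABCD4, which exports cobalamin from lysosomes, with -0.43 (adjusted p = 0.0141). Without FT_1 the counts were 2 higher and 5 lower.

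Of the folate genes of the cytosol 10 were tested, with 2 higher, 3 lower and a median of -0.52 (3 and 5 without FT_1). TYMS, which uses folate to make thymidylate, was at 19.8, 23.7 and 22.8 FPKM in FT_1, FT_2 and FT_3 and at 63.2, 76.7 and 64.1 FPKM in WT_1, WT_2 and WT_3. It fell with a log2 fold change of -1.46 (edgeR, adjusted p = 9.49e-04), GGH, a folate hydrolase, with -1.32, and MTHFD1, which interconverts the forms of folate, with -0.56. SLC19A1, the reduced folate carrier, rose with 0.79 (adjusted p = 0.00770). Of those of mitochondria 12 were tested, with 0 higher, 4 lower and a median of -0.37 (1 and 7 without FT_1). GCSH, the lipoyl carrier of glycine cleavage, was at 3.53, 2.49 and 2.74 FPKM in FT_1, FT_2 and FT_3 and at 12.6 to 13.7 FPKM in WT, a log2 fold change of -2.00 (adjusted p = 9.76e-04). DLD, its dehydrogenase partner, fell with -0.98, MTHFD2L with -1.16 and MTFMT with -0.49. SHMT2, named after its values were seen, moves a carbon from serine to folate and stood out in FT_1, at 255 FPKM against 85.0 in FT_2, 85.4 in FT_3 and 99.5 to 108 in WT. Its log2 fold change was 0.61 with all libraries and -0.11 without FT_1, and neither passed the test (edgeR, adjusted p = 0.316 and 0.178).

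Of 4 genes tested for transsulfuration and betaine, 1 was lower and 0 higher, with a median of -0.25 (1 higher and 2 lower without FT_1). That gene was CTH, which makes cysteine from cystathionine, at 7.04, 4.34 and 4.44 FPKM in FT_1, FT_2 and FT_3 and at 14.1 to 16.8 FPKM in WT (log2 fold change -1.36, edgeR adjusted p = 0.00457). Methionine salvage and polyamine synthesis had 9 tested genes, with 1 higher, 4 lower and a median of -0.12 (2 and 5, with a median of -0.25, without FT_1). ODC1, the first enzyme of polyamine synthesis, fell with a log2 fold change of -1.61 (adjusted p = 0.00107), and the salvage enzymes ENOPH1 and APIP with -0.90 and -0.60. ADI1, of the same salvage route, rose with 0.74 (adjusted p = 0.00363).

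Methyltransferases that use SAM differed in both directions, with 8 of 19 tested higher, 4 lower and a median of 0.29 (10 and 4 without FT_1). KMT2A, a histone methyltransferase, rose from 2.45–3.39 FPKM in WT to 6.92, 5.59 and 5.74 FPKM in FT_1, FT_2 and FT_3 (log2 fold change 1.21, edgeR adjusted p = 0.00224). PCMT1, which repairs aged aspartate residues in proteins, fell with a log2 fold change of -1.17, EZH2, the histone methyltransferase of Polycomb, with -0.93, and METTL14, of the RNA adenosine methyltransferase, with -0.67. DNMT1, the maintenance DNA methyltransferase, named outside the rule after its values were seen, was at 13.5, 13.6 and 14.2 FPKM in FT and at 15.6 to 16.4 FPKM in WT. Its groups did not overlap in FPKM, but its log2 fold change in edgeR was -0.05 (adjusted p = 0.592).

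Genes that feed serine synthesis or carry serine and methionine into the cell were followed as well. Of 5 glycolytic genes around phosphoglycerate, 1 was lower and 0 higher, with a median of -0.50 (4 lower and 1 higher without FT_1). That gene was PGAM1, which takes phosphoglycerate onward to pyruvate, at 292, 218 and 222 FPKM in FT_1, FT_2 and FT_3 and at 556 to 654 FPKM in WT (log2 fold change -1.13, edgeR adjusted p = 0.00252). Of 9 transporters of methionine and serine, 2 were higher and 0 lower, with a median of 0.44, but without FT_1 2 were higher and 3 lower, with a median of -0.04. SLC43A1, a carrier of large neutral amino acids, rose from 4.38–4.97 FPKM in WT to 19.9, 26.5 and 25.0 FPKM in FT_1, FT_2 and FT_3 (log2 fold change 2.51, adjusted p = 5.23e-04). SLC38A2, a carrier of small neutral amino acids, rose with 0.45 (adjusted p = 0.0269). Of the serine racemase and dehydratase genes, 2 were tested and 0 passed with all libraries, with a median of -0.70, and without FT_1 1 was higher and 1 lower, with a median of -1.07.

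ATF4 is the transcription factor that raises PHGDH, PSAT1 and PSPH when amino acids run short. A list of 14 genes around its response was tested, which also holds ATF4 itself and EIF2AK4, a kinase upstream of it. Of these 1 was higher and 5 lower, with a median log2 fold change of -0.46, and without FT_1 5 were higher and 9 lower, with a median of -0.89. DDIT3, a stress transcription factor, was at 42.5, 46.6 and 51.2 FPKM in FT_1, FT_2 and FT_3 and at 128 to 134 FPKM in WT, a log2 fold change of -1.32 (edgeR, adjusted p = 7.99e-04). SESN2, a sensor of leucine, fell with -1.15, and ALDH18A1, of proline synthesis, with -0.76. CEBPB, a partner of ATF4, rose with 0.92 (adjusted p = 0.0110). ATF4 itself, given outside the naming rule, was at 657, 367 and 393 FPKM in FT_1, FT_2 and FT_3, and at 527 to 604 FPKM in WT. FT_1 was again the highest library, and the log2 fold change was -0.10 with all libraries (adjusted p = 0.761) and -0.40 without FT_1 (adjusted p = 0.00128).

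Genes of the cell cycle moved with the groups too. Of 12 proliferation genes tested, 11 were lower in FT and 0 higher, with a median of -1.36, and all 12 were lower without FT_1. CCNB1, the mitotic cyclin, was at 8.20, 13.8 and 12.1 FPKM in FT_1, FT_2 and FT_3 and at 73.7 to 91.7 FPKM in WT (log2 fold change -2.65, edgeR adjusted p = 0.00102). CDK1, its kinase, fell with -1.63, PCNA, the sliding clamp of replication, with -1.50, and AURKB, a mitotic kinase, with -1.32. CCNB1 was lower in FT_1 than in FT_2 or FT_3, unlike the serine synthesis genes. The part of proliferation in the level of the serine synthesis genes was not tested.

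**Figure D5:**
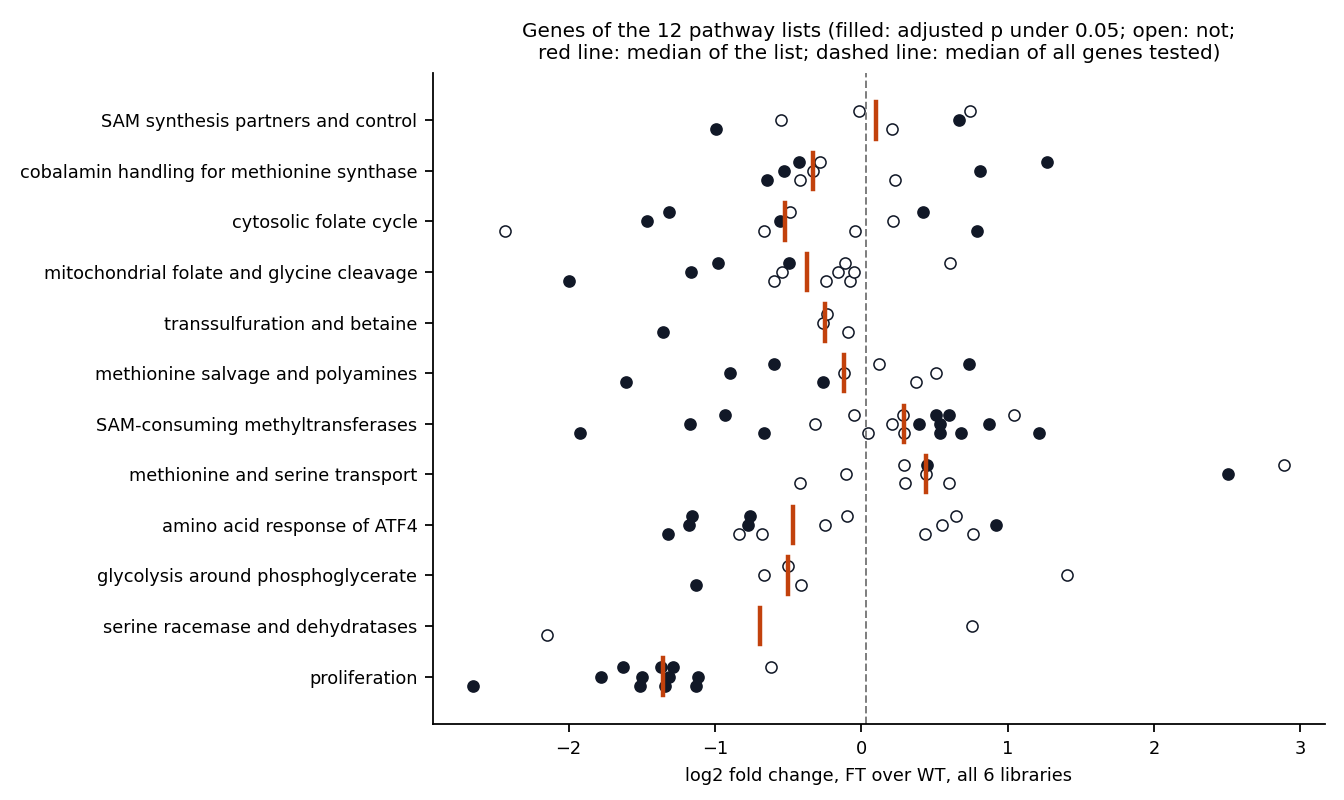
Log2 fold change of FT over WT for each tested gene of the 12 pathway lists, from edgeR with all 6 libraries; filled points have an adjusted p under 0.05, red lines are the medians of the lists and the dashed line is the median of all genes tested. The proliferation list has the lowest median, at -1.36, among the 12.

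Among all genes tested, the patterns nearest to PSPH over the 6 libraries, by the root mean square difference of centred log2 CPM, were those of CCND2 (0.09), ID3 (0.12) and IVNS1ABP (0.13). CCND2, a cyclin of the early cell cycle, was at 10.9, 3.89 and 3.72 FPKM in FT_1, FT_2 and FT_3 and at 17.7, 17.9 and 18.3 FPKM in WT. Being picked for their nearness to PSPH over these libraries, they too had FT_1 between the other FT libraries and WT. The patterns nearest to AHCY, the gene of the 8 that rose, were those of MRPL49 (0.03), CREB3 (0.03) and SLC7A6OS (0.04). MRPL49, of the mitochondrial ribosome, was at 42.8, 37.7 and 38.0 FPKM in FT_1, FT_2 and FT_3 and at 32.0, 36.5 and 36.4 FPKM in WT.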

How the data were processed

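Per the labels and the methods, poly(A) RNA of 3 FT and 3 WT cultures was sequenced in pairs of reads, and the authors aligned it with HISAT, with StringTie and edgeR for expression. The processing notes of the submitters list HISAT2 2.0, StringTie 1.3.0 and Bowtie 0.12.2, with mm8 as the build, a mouse assembly. The build of the cattle coordinates is not given in the sources used here. The authors deposited FPKM per gene and library, and the deposited raw counts stand in the same table. Counts were tested with edgeR 4.0.16 in R 4.3.3 (TMM scaling, its default low-count filter, quasi-likelihood F test), and standard errors were derived from the F statistic. Alternatives used DESeq2 1.42.0, limma 3.58.1 on log2(FPKM + 1), where fold changes of low genes are understated, other scalings and filters, and each library left out. The fit was tested on simulated data. Figures were drawn with matplotlib 3.10.9. Named genes are the 8 members, up to 4 genes of smallest p per list among those at an adjusted p under 0.05, and the 3 nearest in pattern to the member that rose most and to the one that fell most. Outside this rule, markers of cell types, MAT1A, SHMT2, DNMT1, ATF4, SLC7A5, SLC3A2, GLDC and further carriers of the transport list were named. The members and lists were chosen with earlier results of these data known. Of the listed genes, 11 of 123 in the pathways were not analysed here.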

Additional observations from a re-analysis of the deposited data

How the results depend on the processing

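PSAT1 fell and passed the test in 10 of 10 alternatives and with each of 6 libraries left out (log2 fold change -1.20 to -0.86), and PSPH in 10 of 10 alternatives. With 1 library left out in turn, log2 fold changes ran from -2.05 to -1.28 for PSPH, -1.03 to 0.082 for PHGDH, 0.26 to 0.36 for AHCY, -0.075 to 0.24 for MAT2A, -0.066 to 0.061 for MAT2B, -0.12 to 0.25 for MTR and -0.063 to 0.070 for MTRR. Mean log2 differences of ratios then ran from -0.071 to 0.26 for MAT2A over MAT2B, from -0.45 to -0.062 for MAT2A over AHCY and from -0.26 to 0.030 for MTRR over MTR. They ran from -0.80 to -0.17 for PSAT1 over PHGDH and from -1.26 to -1.02 for PSPH over PHGDH. Over all genes, 1516 to 4215 were higher in FT and 1531 to 4337 lower, against 2714 and 2547 with all libraries, and 30 and 60 pathway genes without FT_1, against 17 and 37. With library totals alone, PHGDH was at -0.35, MAT2A at -0.10, MAT2B at -0.17, MTRR at -0.16, MTR at -0.036 and AHCY at 0.17 (adjusted p = 0.166). With limma on log2(FPKM + 1), on log2(FPKM + 0.1) and without a filter, PHGDH was at -0.61, -0.61 and -0.61, MAT2A at -0.13, -0.13 and -0.13, MAT2B at -0.17, -0.17 and -0.17, MTRR at -0.14, -0.16 and -0.14, MTR at -0.022, -0.043 and -0.022, and AHCY at 0.16, 0.16 and 0.16 (adjusted p = 0.160 to 0.167). These fits gave 462, 749 and 456 higher genes by the rule of the study, against 1378. By the same rule they gave 1026, 1451 and 1023 lower genes, against 1208. At an adjusted p under 0.05 the last gave 1744 higher and 3622 lower. With a length trend removed, MAT2B was at 0.014, MTR at -0.043 and MTRR at 0.0096. With the replicate number as a replicate block, 1838 genes were higher and 1741 lower, PHGDH was at -0.47 and AHCY was at 0.32 with an adjusted p of 0.0964. Equal numbers name different fetuses, so the numbers were not used as pairs in the main fit. Deviations of same-numbered libraries from their group means correlated at -0.02, -0.03 and 0.04. FT_3 correlated best with the WT library of its own number, and FT_1 and FT_2 did not. As FT_1 stood apart from the other FT libraries, these correlations cannot decide whether same-numbered libraries shared a batch. The cause of the differences between settings was not tested. A planned motif search in promoters was not run. MTR, at 174 counts in its shallowest library, had the fewest counts of the 8.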

Other observations

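Further lists of cell type markers summed to less than the smooth muscle list in each of the 6 libraries. The 6 of 7 endothelial markers in the table summed to 1.03, 0.47 and 0.53 FPKM in FT_1, FT_2 and FT_3 and to 1.56, 1 and 1.20 FPKM in WT_1, WT_2 and WT_3, led by PECAM1 in WT and by VWF in FT_2 and FT_3, with KDR at 0 in FT. The 4 of 7 skeletal muscle markers summed to 0.06, 0.63 and 0.65 FPKM in FT and to 1.16, 1.35 and 2.05 FPKM in WT, led by MYF5 in all but FT_1, with ACTA1 and CKM at or near 0. The 4 of 7 blood markers summed to 1.69, 7.27 and 7.81 FPKM in FT and to 19.8, 19.2 and 18.1 FPKM in WT, led by LAPTM5, with HBA at or near 0. The 4 of 5 cartilage markers summed to 2.34, 0.40 and 0.43 FPKM in FT and to 0.85, 1.17 and 1.01 FPKM in WT, led by SOX9 in FT and by ACAN in WT, with COL2A1 at or near 0.

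FT_1 also stood apart in SLC7A5, SLC3A2 and GLDC. 2 chains of the carrier that takes up methionine were high in FT_1, and a gene of glycine cleavage was low. SLC7A5, the light chain, was at 44.0, 9.91 and 11.2 FPKM in FT_1, FT_2 and FT_3, and at 16.3 to 18.9 FPKM in WT. SLC3A2, the heavy chain, was at 163, 71.4 and 87.2 FPKM in FT_1, FT_2 and FT_3, and at 123 to 138 FPKM in WT. GLDC, the decarboxylase of glycine cleavage, was at 4.76, 31.1 and 30.9 FPKM in FT_1, FT_2 and FT_3, and at 28.1 to 32.0 FPKM in WT. These genes were chosen after their values were seen, and none of them passed the test of FT against WT with all libraries (edgeR, adjusted p = 0.579, 0.800 and 0.792). Without FT_1 the log2 fold changes were -0.57, -0.52 and 0.24, each with an adjusted p under 0.05. Of the other carriers in the transport list, SLC7A8, SLC43A2, SLC1A5 and SLC38A1 were also highest in FT_1. SLC43A1, SLC1A4 and SLC38A2 were not, and SLC38A2 was at 184, 227 and 216 FPKM in FT_1, FT_2 and FT_3.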
